A study of Drosophila melanogaster with 33 samples.

Results

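RNA editing in fly heads was compared between nascent RNA, which is still attached to chromatin, and mature polyadenylated RNA of the same yw (yellow white) strain of Drosophila melanogaster. The sites described are those of the deposited table that carry a yw mRNA editing level. They number 257 of 1350 sites and lie in 128 of 395 gene entries, and all 257 are exonic. The rule that chose them asks only whether a yw mRNA level is listed, not how high it is. How the deposited table came to list a level at a site is not stated. The lowest listed mRNA level is 12%, so whether listing itself depended on the level is unknown.

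Adenosine deaminases that act on RNA (ADAR enzymes) turn adenosine into inosine within double-stranded stretches of RNA, and inosine is read as guanosine by ribosomes and by sequencing. Flies have 1 Adar gene, and many of its known targets are messages for ion channels and synaptic proteins in neurons. In exons the double strand is often formed with a nearby intron, so such a site has to be edited before that intron is removed. A comparison of chromatin-bound RNA with mRNA therefore asks how much of the final editing is already in place during transcription.

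Nascent RNA came from purified nuclei of yw heads at 6 times of a cycle of 12 hours of light and 12 hours of darkness, namely 2, 6, 10, 14, 18 and 22 hours after lights on, in 2 replicate sets. This gives 12 libraries. All were depleted of polyadenylated RNA, and the labels name ribosomal RNA depletion for set 1 alone. The mRNA came from total RNA of yw heads at 2 and 14 hours, with 1 library at each time. Both kinds of flies were 3 to 4 days old per the labels, and no sex is given for either. Separate small preparations of nascent RNA from 40 to 45 male heads served as further readouts, in 2 libraries for each of the strains yw, FM7a and ADAR0. Genomic DNA of yw flies, in 1 library, gave the coverage of each site. The labels give the same age and the same cycle of light and darkness for the mRNA, male and genomic DNA flies. ADAR0 flies lack the enzyme.

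An editing level is the percent of reads at a site that carry the edited base. It averages over all cells of the head, so fewer cells with edited RNA and less editing per cell cannot be told apart. The deposited levels are pooled over libraries, with 1 value for each nascent set, 1 for all 12 nascent libraries, 1 for yw mRNA and 1 for each male strain. The read depth behind these levels is unknown, so no counting interval or detection limit could be given. The spread between the nascent sets is the error used below. It gives an SD of 4.94 percentage points for a single nascent level, with a median gap between the sets of 4 points, a largest gap of 24 points and 36 sites over 10 points apart. Set 1 was the higher of the pair at 181 sites and set 2 at 57. The mRNA level has no replicate error, and an exact permutation test of 2 nascent values against 1 mRNA value cannot give a two-sided p under 0.333. The comparison is therefore given as values and counts with no test. The mRNA and nascent libraries also differ in sampling times and in RNA preparation, which cannot be told apart from the kind of RNA.

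In enzyme-free ADAR0 males 215 of the 257 sites were listed at 0%, and 4 were above 5%, so the background at these sites was low. The highest was 13% at the T-type calcium channel gene Ca-alpha1T (chromosome X, position 6002745), where nascent RNA was at 91%. Of markers of the cell types in a head, 2 of 5 for neurons (Syt1 and para), 1 of 4 for muscle (bt), 0 of 5 for photoreceptors, 0 of 4 for glia and 0 of 4 for fat body were edited at a site with an mRNA level. Edited sites say nothing about the expression of a marker without one.

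Most of the mRNA level was already present in nascent RNA, and at most sites the level was somewhat higher in mRNA. The median level was 48% in the pooled nascent RNA, with 50% in set 1 and 45% in set 2, and 58% in yw mRNA. The 364 exonic sites without an mRNA level had a nascent median of 16%, so the compared sites lean towards high levels. Levels in mRNA ran from 12% to 100% and in nascent RNA from 11% to 95%. Across sites the mRNA and nascent levels had a Pearson's r of 0.83, and the nascent sets had 0.96 with each other. Nascent RNA of yw males had 0.81 with the pooled nascent level, so a lower r than that of the sets was not particular to mRNA. These are descriptions over 257 sites that share libraries and genes.

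The median of mRNA minus nascent level was 8 points, with the quartiles at -2 and 16 points. The level was higher in mRNA at 177 sites, lower at 76 and equal at 4. In the median, nascent RNA held 85.4% of the mRNA level. Measured against set 1 alone the median difference was 7 points, and against set 2 alone it was 9 points.

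Each site was placed by whether its mRNA level lay above both nascent sets, below both, or between them with the ends included. The mRNA level lay above both sets at 164 sites (63.8%), below both at 53 (20.6%) and between them at 40 (15.6%). These shares are the background for every gene and gene list below. A margin of 10 points beyond both sets left 83 sites above (32.3%) and 2 below (0.778%). The sites below the sets thus lay close to them, with a median difference of -7 points from the pooled level, whereas the sites above had a median of 14 points.

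**Figure D1:**
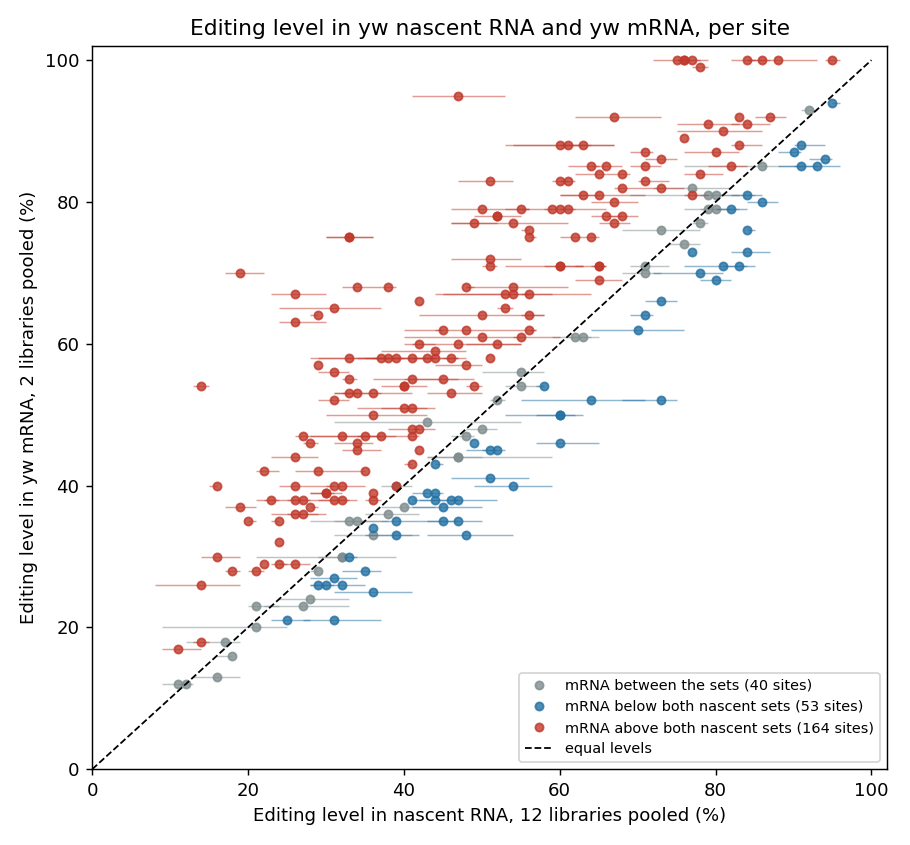
Editing level in yw mRNA (vertical axis, percent, 2 libraries pooled) against the level in pooled nascent RNA (horizontal axis, percent, 12 libraries pooled) at the 257 sites. Each point is a site, the horizontal bar spans its 2 nascent sets, and the dashed line marks equal levels; the 164 red points lie above both sets, the 53 blue points below both and the 40 grey points between them.

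How far nascent libraries differ from each other beyond the paired sets could be measured at the same sites in yw males. The level in nascent RNA of yw males lay below both sets at 178 sites (69.3%) and above both at 40 (15.6%), with a median of 10 points under the pooled nascent level. Another preparation of nascent RNA from the same strain was thus as far from the sets as mRNA was, in the opposite direction. The male libraries differ in scale of preparation and in the version of the CASAVA software. They also come from males alone and have no time of day in the labels, whereas the sets have no sex given and span the light and dark cycle. The part of each in this gap was not tested. Set against the males, mRNA was higher at 222 sites and lower at 31, with a median difference of 17 points. The mRNA level lay above all 3 nascent measures at 153 sites (59.5%) and below all 3 at 20 (7.78%). The excess in mRNA was thus seen against each nascent measure, whereas 33 of the 53 sites below the sets were above the males.

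Sites whose pooled nascent level matched or passed the mRNA level can be counted by the ratio of levels. Nascent RNA reached or exceeded the mRNA level at 80 sites (31.1%) and held at least 90% of it at 113 sites (44%). Of the 80, mRNA was lower at 76 and equal at 4. The count depends on the nascent measure, since against yw males mRNA was lower at 31 sites and equal at 4. At 10 sites it held under 50% of the mRNA level. At the 164 sites with mRNA above both sets, the excess in mRNA was set against the unedited share in nascent RNA. It equalled 28.8% of that share in the median, with the quartiles at 16.9% and 48.5%. These sites were chosen for an excess in mRNA, so the value is positive by that choice.

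The difference was similar over most of the range of nascent levels and absent in the median at the top. At the 14 sites under 20% in nascent RNA the median difference was 8 points, and mRNA lay above both sets at 9 and below both at 0. No listed mRNA level was under 12%, which limits how far below the sets a site of this bin could be. At the 78 sites from 20% to under 40% the median difference was 9 points, with 54 above and 12 below. The differences reached 51 and 42 points in these bins.

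At the 76 sites from 40% to under 60% the median was 8.5 points, with 50 above and 17 below. At the 60 sites from 60% to under 80% it was 11 points, with 40 above and 10 below. Sites in this upper middle range therefore reached a median of 79.5% in mRNA. Where nascent editing was 80% or more, at 29 sites, the median was -1 point, with 11 above (37.9%), 4 between and 14 below (48.3%). The differences there ran from -12 to 16 points, and the part of the upper limit of 100% in them was not tested.

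The pooled nascent level enters both the bin and the difference, so a site that is high by error is moved up in the one and down in the other. With the bin taken from set 1 and the difference from set 2 the median at 80% or more was 2 points over 33 sites, and with the sets exchanged it was -1 point over 23 sites. With the bin taken from yw males, which the difference does not use, it was 2.5 points over 20 sites. The medians of the other 4 bins were positive in each of these arrangements, from 5.5 to 14 points.

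**Figure D2:**
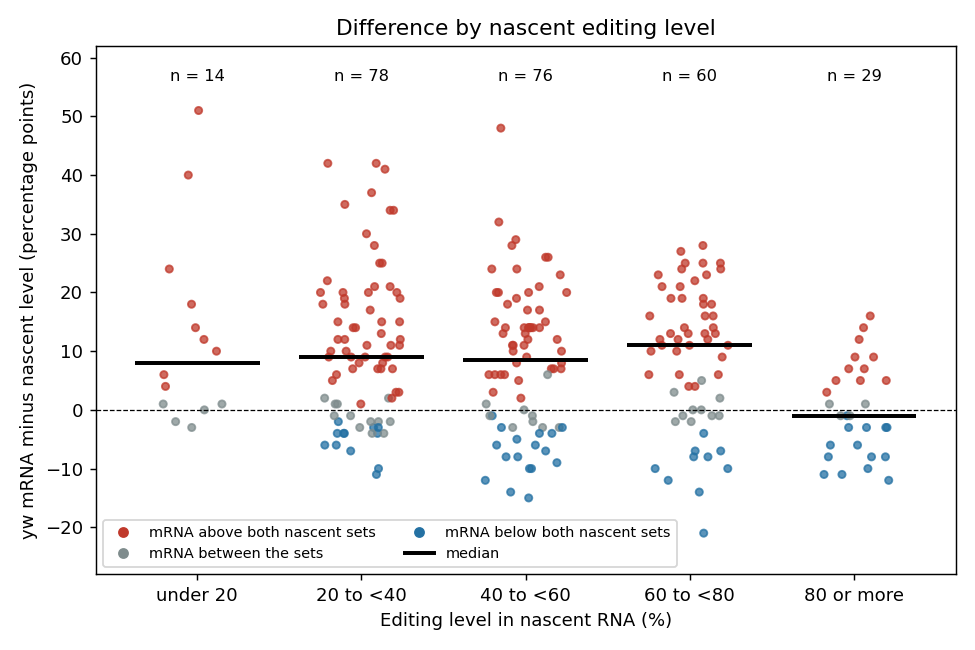
Difference between yw mRNA and pooled nascent level (vertical axis, percentage points) at each site, in 5 bins of the nascent level (horizontal axis, percent). Points are sites, coloured by whether mRNA lay above both nascent sets, between them or below both, and black bars are medians, which run from 8 to 11 points in the 4 lower bins and stand at -1 point at 80% or more.

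The 8 sites with the highest nascent levels, all at 90% or more, lay in channel, receptor and synaptic genes, and most were slightly lower in mRNA. They were chosen by the nascent level that the difference subtracts, and no level can pass 100%. The choice itself thus favours a lower mRNA level. Ca-alpha1D, the L-type calcium channel gene, had a site (chromosome 2L, position 16174194) at 96% and 94% in the nascent sets and 100% in mRNA. Syn, which encodes the vesicle protein synapsin, was at 95% and 96% in nascent RNA and 94% in mRNA (chromosome 3R, position 6021148). The mRNA values lay within 5 points of the pooled nascent level at both sites.

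The calcium-activated potassium channel gene slo had 95% and 92% in nascent RNA and 86% in mRNA (chromosome 3R, position 20532273). Rya-r44F, which encodes the ryanodine receptor that releases calcium from internal stores, had 96% and 90% in nascent RNA and 85% in mRNA (chromosome 2R, position 4771211). At both sites mRNA lay below each set. Of the 8 sites at 90% or more in nascent RNA, mRNA was above both sets at 1, at Ca-alpha1D, and below both at 6.

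Some sites of moderate to high level were within 1 point of each other in mRNA and pooled nascent RNA. Even so, mRNA was above nascent RNA of yw males at all 8 of the sites with the smallest differences. Over all 257 sites this held at 222 (86.4%). The eag potassium channel site (chromosome X, position 14893901) was at 76% and 82% in the nascent sets, 79% in mRNA and 54% in males. A site of cac, the presynaptic calcium channel gene, was at 74% and 69% in nascent RNA, 71% in mRNA and 60% in males (chromosome X, position 11871571). A delayed rectifier potassium channel gene, Shab, had neighbouring sites at positions 2941425 and 2941426 of chromosome 3L with pooled nascent levels of 55% and 92% and mRNA levels of 54% and 93%. The adjacent bases thus had very different levels, each within 1 point of the other kind of RNA, while males had 9% and 76%. Males were over 10 points from the pooled nascent level at 7 of the 8 sites. Such gaps were common, with a median of 11 points in either direction over all 257 sites.

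At other sites nearly all mRNA was edited and the level in nascent RNA was lower. The mRNA level was 95% or more at 10 sites in 8 genes, all of them above both nascent sets. The highest pooled nascent level at any site was 95%, so sites chosen at this mRNA level could hardly lie below the sets. Besides the Ca-alpha1D site above, 9 were edited at 47% to 88% in pooled nascent RNA. At NaCP60E, a gene of the sodium channel family, the nascent sets were at 77% and 75% and mRNA was at 100% (chromosome 2R, position 20802381). At na, the cation leak channel gene narrow abdomen, they were at 78% and 77% and mRNA was at 100% (chromosome X, position 14166125). The 2 sets were within 2 points of each other at both sites, while yw males were at 56% at NaCP60E and 83% at na.

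At pan, which encodes the Wnt pathway transcription factor pangolin, the sets were at 76% and 75% and mRNA at 100% (chromosome 4, position 120807). At Nckx30C, a potassium-dependent sodium and calcium exchanger gene, they were at 87% and 84% and mRNA was at 100% (chromosome 2L, position 9733349). A level of 100% says that no unedited read was listed, at a depth that is unknown.

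The largest excess was 51 points at SNF4Agamma, which encodes the gamma subunit of the energy sensor AMP-activated kinase (chromosome 3R, position 17026852). The nascent sets were at 22% and 17%, yw males at 8% and mRNA at 70%. CG30127 followed with 41% and 53% in nascent RNA and 95% in mRNA (chromosome 2R, position 15213814), and then CG34357 with 30% and 36% and 75% in mRNA (chromosome 3R, position 319616). At all 3 the mRNA level stood far outside the gap between the sets.

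The vesicle priming gene unc-13 had a site at 36% and 30% in nascent RNA and 75% in mRNA (chromosome 4, position 909692). The nicotinic acetylcholine receptor subunit gene nAcRalpha-34E had one (chromosome 2L, position 14089221) with 23% and 30% in the sets, 67% in mRNA and a listed 0% in yw males. Mhcl, a myosin heavy chain-like gene, had 2 of the 10 largest excesses. Its site at position 11922960 of chromosome 3R was at 13% and 15% in nascent RNA and 54% in mRNA, and its site at position 11922390 was at 37% and 32% and at 68%.

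The other 3 of the 10 were at fry, a gene of neurite branching, CG43707 and CG18437, with excesses of 37, 35 and 34 points. All 10 lay above the males as well, as did 222 of all 257 sites (86.4%). The 5th percentile that the authors' deposited table gives over the 12 nascent libraries was under 10% at 5 of these 10 sites, against 27 of the 257 (10.5%), and 6 of the 10 were seen in all 4 control male libraries, against 206 of the 257. The part of uneven nascent libraries in these excesses was not tested.

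**Figure D3:**
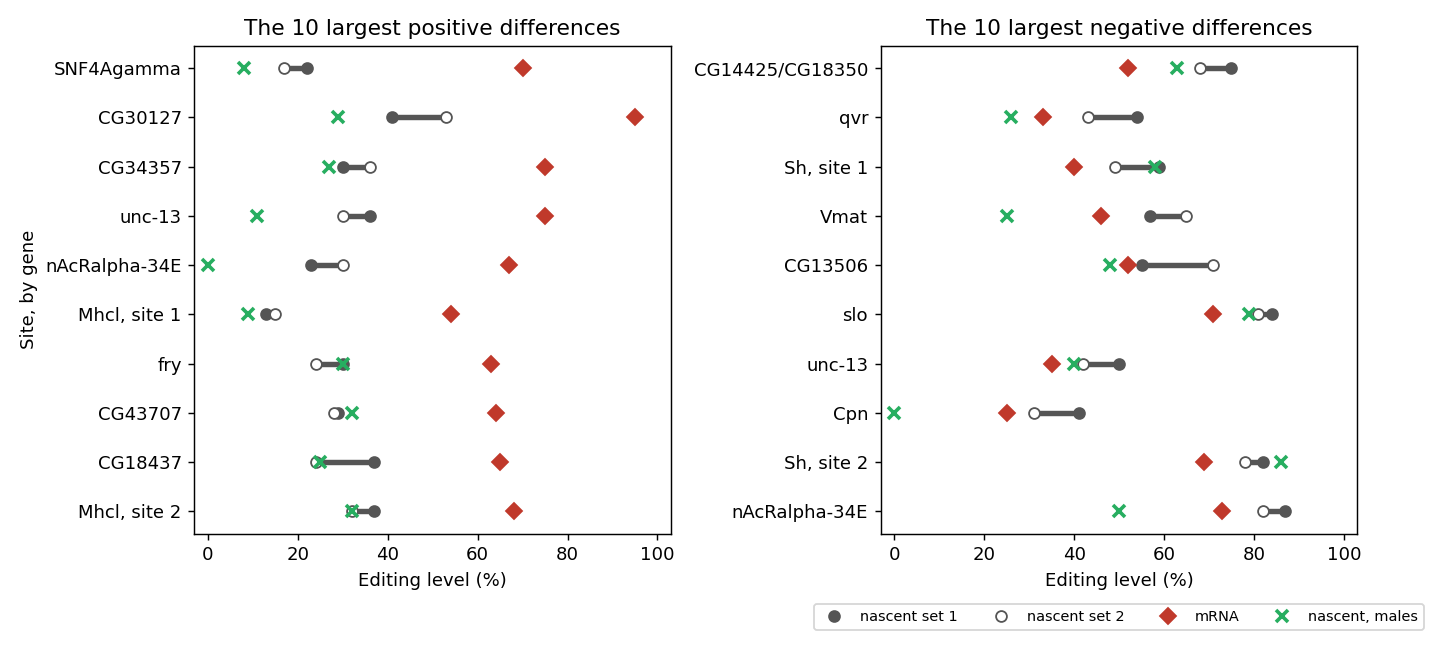
Editing levels (horizontal axis, percent) at the 10 sites with the largest positive and the 10 with the largest negative difference of mRNA from pooled nascent RNA. Grey circles joined by a bar are the nascent sets, red diamonds are yw mRNA and green crosses are nascent RNA of yw males; mRNA lies 34 to 51 points above the pooled nascent level on the left and 11 to 21 points below it on the right.

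Differences in the other direction were smaller. The largest was -21 points at the entry CG14425/CG18350, which joins overlapping genes, with 75% and 68% in nascent RNA, 63% in yw males and 52% in mRNA (chromosome X, position 6979849). qvr, which encodes the Shaker channel regulator quiver, had 54% and 43% in nascent RNA and 33% in mRNA (chromosome 2R, position 7337822). The mRNA value was thus 10 points under the lower set at qvr, where males were lower still at 26%.

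The Shaker potassium channel gene Sh had 59% and 49% in nascent RNA, 58% in males and 40% in mRNA (chromosome X, position 17824684). The monoamine vesicle transporter gene Vmat was at 57% and 65% in nascent RNA and 46% in mRNA (chromosome 2R, position 9404780), and CG13506 at 55% and 71% and at 52% (chromosome 2R, position 18279015). At slo the sets were at 84% and 81%, males at 79% and mRNA at 71% (chromosome 3R, position 20501385). The remaining 4 of the 10 were 1 site each of unc-13, Cpn, Sh and nAcRalpha-34E, at -12 to -11 points. The males were above mRNA at 5 of the 10 and below it at the other 5, so qvr, Vmat, CG13506, Cpn and nAcRalpha-34E were not low against that nascent measure.

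By gene, most entries with several sites held more than one class. Of the 49 entries with 2 or more sites, 30 had 3 or more, and these held 140 of the 257 sites. In 7 of the 30 every site had mRNA above both sets, in 1 every site had it below both, and 15 had sites of both kinds. Of the 79 entries with a single site, mRNA was above both sets at 52 (65.8%), between at 16 and below at 11, close to the shares over all sites. Whether genes differ in these counts beyond the shares over all sites was not tested. The SD of the difference was 10.1 points among sites of the same gene and 12.0 points over all sites of these 49 entries. Sites of a gene share transcripts and often reads, and are not replicates.

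The genes above the sets at every site included endoA, which encodes the membrane-bending endocytic protein endophilin A. Its 4 sites had pooled nascent levels of 51%, 49%, 24% and 61% and mRNA levels of 72%, 77%, 35% and 88%, a median difference of 24 points. CG18437, named unc80 in RefSeq and known as a subunit of the narrow abdomen leak channel complex, had 6 of 6 sites above both sets, by 7 to 34 points over the pooled level. CG42492, named OtopLa in RefSeq and a member of the otopetrin proton channel family, had 5 of 5 sites above, by 11 to 26 points.

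Calx, which encodes the sodium and calcium exchanger of photoreceptors and other neurons, had 3 of 3 sites above. Its nascent levels were 55%, 56% and 29% and its mRNA levels 79%, 67% and 57%. The exchanger gene CG1090 had 3 of 3 as well, with a median difference of 19 points, as did CG16974 with 18 points and DopEcR, a receptor gene for dopamine and ecdysteroids, with 8 points. At cac the mRNA level was above both sets at 6 of 7 sites and at no site below both, with a median of 10 points.

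The 1 gene below the sets throughout was Ca-alpha1T. Its 4 sites were at 71%, 86%, 91% and 36% in pooled nascent RNA and at 64%, 80%, 85% and 34% in mRNA. The nascent sets of these 4 sites were between 0 and 5 points apart, and males were at 68%, 84%, 94% and 35%, within 3 points of the pooled level and above mRNA at all 4. This was a small difference, -2 to -7 points, that all 3 nascent measures of yw shared. In FM7a males, another strain, the 4 sites were at 45%, 66%, 85% and 25%, so mRNA was not below them at any site.

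Sh was below both sets at 3 of 4 sites, and the fourth was at 39% in nascent RNA and 40% in mRNA. slo was below at 3 of 4 sites, with a median of -8 points, while its remaining site was at 20% in nascent RNA and 35% in mRNA. nAcRalpha-30D, another nicotinic receptor subunit gene, was below at 3 of 4 sites, with a median of -8.5 points. CG10077 had 6 sites within 4 points of the pooled nascent level, at 11% to 33%, and CG42540 had 4 within 5 points, at 34% to 76%. At these last 2 genes the mRNA level was close to the nascent level over a range of levels. pyd, which encodes the junction protein polychaetoid, had 5 of 6 sites above and 1 below, with a median of 11.5 points, and CG33205 had 2 of 5 above and 3 between, with a median of 3 points.

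**Figure D4:**
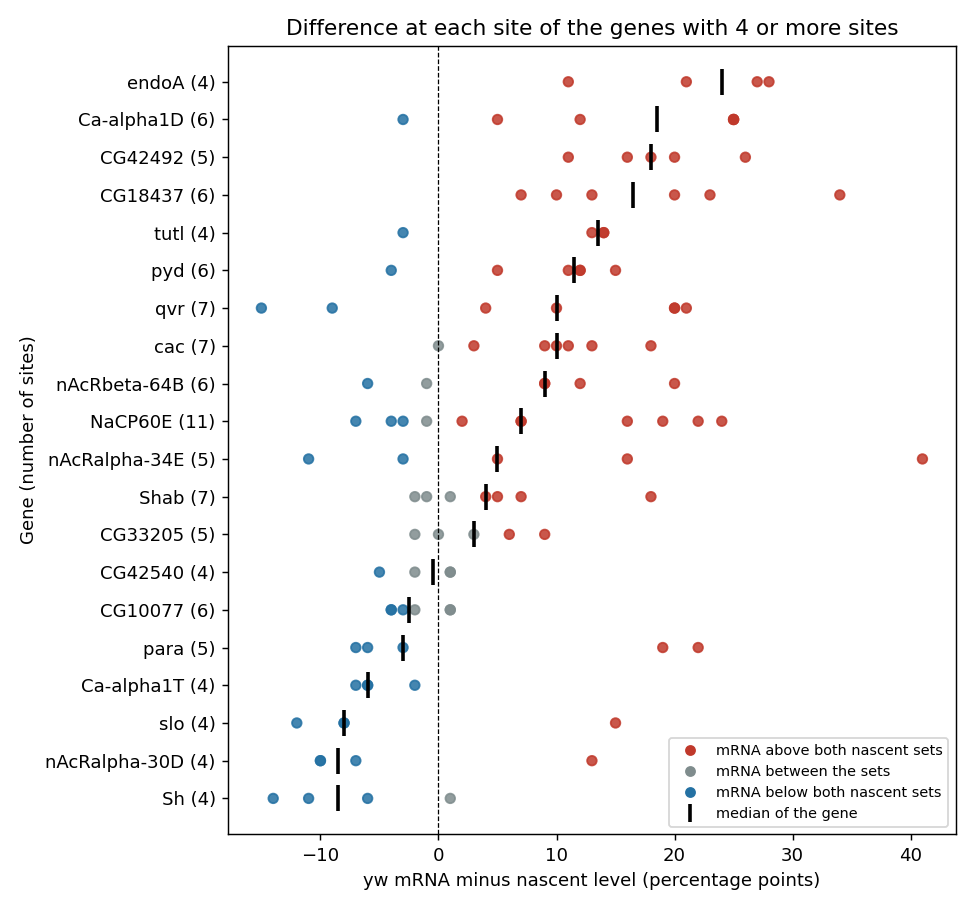
Difference between yw mRNA and pooled nascent level (horizontal axis, percentage points) at each site of the 20 genes with 4 or more sites, ordered by the gene's median, which is marked by a vertical tick. Points are sites coloured by class; endoA, CG42492 and CG18437 hold sites above both nascent sets alone and Ca-alpha1T holds sites below both alone.

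Other genes were split, in part by position. The 11 sites of NaCP60E comprised 7 above, 1 between and 3 below. Its 4 sites within 162 bases at the one end (positions 20802225 to 20802387 of chromosome 2R) were all above, by 2 to 24 points, whereas of 3 sites within 48 bases about 4 kb away (positions 20798298 to 20798346) none was above and 2 were below. Other NaCP60E sites did not follow this, since those at 20798584 and 20798632, also 48 bases apart, were 7 points above and 7 points below, and the one at 20797921 was above by 7 points. In qvr, 4 sites within 22 bases (positions 7335106 to 7335128 of chromosome 2R) were all above, by 4 to 21 points, and a pair of adjacent sites at 7337822 and 7337823 was below, by 15 and 9 points.

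In Ca-alpha1D the 5 sites within 78 bases were all above, by 5 to 25 points, and the single site about 5 kb away at position 16179463 was 3 points lower in mRNA. In nAcRalpha-34E a pair of adjacent sites was below by 11 and 3 points, and 3 sites within 42 bases, about 6 kb away, were above by 5 to 41 points. The sodium channel gene para had 2 of 5 sites above, by 22 and 19 points, and 3 below, by 3 to 7 points. At para a site below and a site above, at positions 16365298 and 16365352 of chromosome X, were only 54 bases apart.

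Over all genes, pairs of sites up to 50 bases apart fell in the same class in 53 of 63 pairs (84.1%). At 51 to 1000 bases it was 70 of 114 pairs (61.4%), and at over 1000 bases 63 of 147 (42.9%), with opposite classes in 4, 16 and 55 pairs. The differences themselves were 3, 7 and 12 points apart in the median. The nascent levels of the pairs were 15, 18.5 and 17 points apart, a gap that changed less with distance. The pairs came from 29, 31 and 27 genes, and a gene with more sites gave more of them. In tutl, which encodes the immunoglobulin-family protein turtle, sites at positions 4314575, 4314576 and 4314586 of chromosome 2L had nascent levels of 73%, 71% and 40% and differences of 13, 14 and 14 points. Close sites are covered by many of the same reads, in both kinds of RNA, and the part of shared reads in this pattern was not tested.

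Gene groups were read against the shares over all 257 sites, which were 63.8% above, 15.6% between and 20.6% below, with a median of 8 points. Voltage-gated and related channel genes held 73 sites in 17 entries, of which 42 were above (57.5%), 11 between and 20 below (27.4%), with a median of 5 points and a nascent median of 63%. Their direction differed from gene to gene, from the 6 of 7 sites above in cac and 6 of 6 in CG18437 to the 4 of 4 below in Ca-alpha1T. Shab had 4 of 7 above and 0 below. The shares of this group were close to those of all sites.

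Ligand-gated channel and receptor genes held 23 sites in 7 entries, of which 14 were above (60.9%), 1 between and 8 below (34.8%), with a median of 9 points. The acetylcholine receptor gene nAcRbeta-64B had 4 of 6 sites above and 1 below. GluClalpha, the glutamate-gated chloride channel gene, had 2 of 2 sites above, by 10 and 9 points. The GABA receptor gene Rdl had sites at 26%, 90% and 40% in nascent RNA and at 40%, 87% and 54% in mRNA. Within Rdl the site with the highest nascent level was thus the one that was not higher in mRNA.

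Vesicle release genes held 17 sites in 9 entries, with 10 above (58.8%), 3 between and 4 below (23.5%), and a median of 2 points. The list named the monoamine transporter gene in another spelling, so the Vmat site, below both sets by -14 points from the pooled level, was not counted. The 4 endoA sites were higher, while Syt1, the calcium sensor gene of release, had 84%, 42% and 41% in nascent RNA and 76%, 45% and 43% in mRNA. The 2 sites of the fusion clamp gene cpx were at 40% and 25% in nascent RNA and 37% and 21% in mRNA. unc-13 had 1 site in each class, at -12, 2 and 42 points.

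The ion pump and exchanger genes of the list were above both sets at 11 of 11 sites in 5 entries, with a median of 14 points and a nascent median of 34%. The list left out Ndae1, a sodium-driven anion exchanger gene, whose site at position 7230012 of chromosome 2L was below both sets, with 57% and 58% in nascent RNA and 54% in mRNA, and whose site at position 7228779 was above, with 43% and 50% and 53% in mRNA. With Ndae1 the count was 12 of 13 sites and the median 11 points, so the full count rests on which genes were listed. The smallest differences were 3 points, at Nckx30C and at the sodium pump gene Atpalpha, where the sets were at 28% and 24% and mRNA was at 29% (chromosome 3R, position 16790761). The largest was 28 points at Calx. At all 11 listed sites mRNA was also above the yw males, as it was at 222 of all 257 sites (86.4%). These 5 genes were taken into the list with earlier results of these data known, and the count carries no test against the 63.8% over all sites.

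The smaller groups were phototransduction with 4 above and 1 below, adhesion and cytoskeleton with 4 above, 1 between and 1 below, the last at an entry that the deposited table calls dlt and RefSeq names alpha-Spec, second messengers with 3 above and muscle genes with 1 above and 2 below. Of the photoreceptor sites 3 were in Calx, and the one below was in Cpn, the calphotin gene, at 41% and 31% in nascent RNA, 25% in mRNA and listed at 0% in males. The muscle sites comprised 2 of Rya-r44F, each 8 points lower, and 1 of bt, the titin-like gene bent, at 31% in nascent RNA and 56% in mRNA. The clock gene tim had 30% and 39%, mbl of the splicing regulators 42% and 60%, and ps, an RNA-binding protein gene, 12% and 12%. Glia and fat body genes had no site with an mRNA level. The 116 sites in none of the lists, that of Vmat among them, had 76 above (65.5%), 23 between and 17 below (14.7%), with a median of 9 points.

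**Figure D5:**
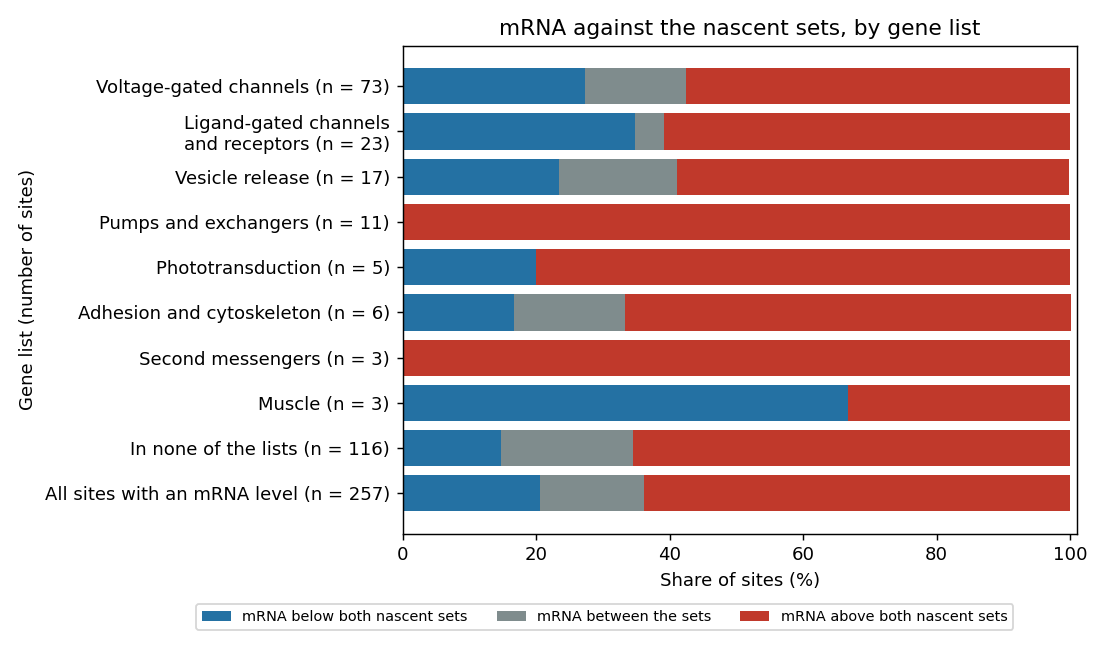
Share of sites (horizontal axis, percent) with yw mRNA below both nascent sets (blue), between them (grey) and above both (red) for each gene list with 3 or more sites, with the number of sites in brackets. The bottom bar gives all 257 sites, and the bar of the 11 listed pump and exchanger sites, which leaves out the 2 sites of Ndae1 (1 above and 1 below), is wholly red. The vesicle release bar leaves out the site of Vmat, which was below both sets.

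The male strains and genomic DNA are readouts that the classes did not use, and their values are given in the order above, between and below. The median level in yw males was 34.5%, 33.5% and 41%. ADAR0 was above 0 at 28 of 164, 4 of 40 and 10 of 53 sites. Genomic DNA covered the sites with medians of 40.5, 47.5 and 45 reads.

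By chromosome the sites above both sets were 32 of 44 on 2L, 32 of 53 on 2R, 25 of 47 on 3L, 41 of 57 on 3R, 5 of 7 on 4 and 29 of 49 on X. The median difference lay between 5 points on 3L and 17 points on 4, and was 8 points on X.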

How the data were processed

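Editing was measured by sequencing of nascent RNA, mRNA and genomic DNA. The submitters' processing notes name the dm3 build, TopHat, and CASAVA 1.6, with CASAVA 1.8 in its place for the male libraries. The method of calling and choosing sites was not given in the sources used here. Per the file headers, each deposited editing level is a fraction from pooled libraries, as described with the results; the values come in hundredths and were multiplied by 100 to give percent. Genomic coverage is a deposited read count. RNA depth is not used here, as the table gives none.

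Sites with a yw mRNA level were kept, and the Canton S mRNA level was not used as a readout. From these levels, differences, classes against the nascent sets and the SD from paired sets were computed with Python 3.11.15, numpy 2.4.6 and pandas 2.3.3; figures were drawn with matplotlib 3.10.9. The class rule was checked on simulated levels with shifts far larger than the spread between the sets and no error in mRNA. That check does not tell how often sites without a shift fall above or below both sets. No test across sites was made. RefSeq (Release 6) supplied current symbols for 104 of 128 entries. Positions are the deposited dm3 ones, with no statement of the base they are counted from.

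The members, gene lists and alternatives were chosen with earlier results of these data known. Sites and genes were named by rule: genes with 4 or more sites, the 10 largest differences in each direction, the 8 highest nascent levels, the 8 smallest differences at 50% or more in nascent RNA, and up to 3 genes per list. Sites at 95% or more in mRNA, genes with 3 sites all above, and further genes of the lists were named after their values were seen. No sequence is printed.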

Additional observations from a re-analysis of the deposited data

How the results depend on the processing

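Of the alternative summary values, 71 stayed within 1.5 times for a share of sites or within the spread between the nascent sets for a median, 27 moved by more and 3 reversed. Within these limits the share above was 50.6% at a margin of 5 points, and the share higher in mRNA was 86.4% with males. With a margin of 5, 10 points or 2 SD the share of sites below both sets was 5.84%, 0.778% and 1.56%, and that between them 43.6%, 66.9% and 63.0%. The share above was 32.3% at 10 points and 35.4% at 2 SD. With yw males added to the 2 nascent sets 7.78% were below and 32.7% between. The median difference was 17 points with males in place of the pooled level, 6.5 points with 1 site per entry and 6 points at 30 or more genomic reads, and nascent RNA was 65.9% of mRNA with males. With bins from set 1 and differences from set 2 the medians under 20%, at 40 to under 60%, at 60 to under 80% and at 80% or more were 5.5, 7, 14 and 2 points. With the sets exchanged the middle 2 were 7 and 5.5 points, and with bins from males they were 11 and 7 points, and 2.5 points at 80% or more. List medians were 6.5 points for phototransduction without Calx, 9.5 for adhesion without fry, 21.5 for second messengers without CG34357 and 25 for muscle without Rya-r44F, which leaves 1 site. The muscle median was -9 to -5 points against single sets. These lists hold 3 to 6 sites. In alternatives chosen after seeing the data, the median was 11 points for pumps and exchangers with Ndae1 and 21 points for adhesion without dlt.

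Of 105 values at 35 named sites, 62 stayed within 1 SD of a nascent level, 37 moved by more, and 6 reversed. Only sites above or below both sets could count as reversed, so changes of sign at sites between the sets are among the others. Among those that moved, sites of CAP, NaCP60E and Shab went from -1 point to 33, 9 and 45 points against males. The 6 that reversed were against males, where mRNA was higher by 7 points at qvr, 21 at Vmat, 4 at CG13506, 25 at Cpn, 23 at nAcRalpha-34E and 5 at Syn. The cause was not tested. No paired analysis was possible because the mRNA level is 1 pool and carries no replicate numbers. Leaving out mRNA libraries and a coverage minimum in RNA gave no value, since the table holds neither.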
